A study of Mus musculus with 6 samples.

Results

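The genes described here are the WNT ligands, their receptors, their modulators and the factors that carry the signal inside the cell. They were taken by gene symbol alone: the Wnt, Fzd, Sfrp, Dkk, Rspo and Dvl families, Tcf7 and its relatives, Lef1, Axin1, Axin2, Lrp5, Lrp6, Lgr4, Lgr5, Lgr6, Ctnnb1, Apc, Rnf43 and Znrf3. The rule found 60 genes among the 21957 with a value in every library. Renal cortex of the inbred mouse strain C57BL/6 had been profiled by RNA-seq, in 3 sham libraries and in 3 libraries (IR24h) taken 24 h after reperfusion. The kidneys of the IR24h group had been made ischemic by clamping both renal pedicles for 30 min, a model of acute kidney injury. The labels mark all libraries as wild type, give no age, and do not describe the sham operation. They do not say that each library came from a separate mouse, so p-values measure the spread between these libraries, which may be technical.

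WNT ligands are secreted, lipid-modified glycoproteins that bind a Frizzled receptor and, in the canonical branch, the co-receptors LRP5 or LRP6. The bound receptors recruit Dishevelled, the complex of APC and Axin stops marking β-catenin for destruction, and β-catenin enters the nucleus and works with TCF and LEF factors. In kidney development Wnt9b of the ureteric duct and Wnt4 of the mesenchyme start nephron formation, Wnt11 acts at the ureteric tips and Wnt7b shapes the medulla. In the adult, WNT signalling is widely studied in tubular repair and fibrosis.

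The libraries held 12877237 to 17061844 counts. Mitochondrial genes took 13.1 to 14.2% of the counts in sham and 68.9, 26.2 and 49.2% in IR24h libraries 1, 2 and 3, which left 4008001, 11804440 and 6755476 counts for all other genes in IR24h. IR24h library 2 stood apart: across genes its log-scale expression correlated at r = 0.823 and 0.836 with IR24h libraries 1 and 3, below its r of 0.848 to 0.859 with the sham libraries. Results are therefore given with and without it. The injury marker Havcr1 was at 0.647 to 1.60 CPM in sham (counts scaled to a common library size) and at 705, 2378 and 1194 CPM in IR24h libraries 1 to 3, which goes with the labels. Proximal tubule markers summed to 9858 to 10766 CPM in sham and 821 to 2565 CPM in IR24h, and 3 of the 5 were called lower. In bulk tissue, fewer cells of a type and less RNA per cell cannot be told apart.

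Promoter sequences are shown for the called genes that the RefSeq promoter table holds, Wnt4 and Fzd1, and for the 2 ligands with a TCF/LEF-type motif, Wnt11 and Wnt5b. They come from RefSeq on GRCm38.p6, are written 5′ to 3′ on the strand of the gene, and lie upstream of the start. Capitals mark a match to the motif, and a sequence wholly in lower case has none. The Wnt4 window, chr4:137277385-137277488 on the plus strand, stops 146 bases short of the RefSeq start, where an annotated exon begins. The Fzd1 window is chr5:4758217-4758466 on the minus strand. The Wnt11 window is chr7:98834862-98835111 on the plus strand. The Wnt5b window is chr6:119449387-119449636 on the minus strand, inside the annotated gene (chr6:119432531-119544347).
Wnt4: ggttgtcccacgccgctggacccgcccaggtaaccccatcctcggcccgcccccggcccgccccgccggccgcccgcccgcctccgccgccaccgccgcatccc
Fzd1: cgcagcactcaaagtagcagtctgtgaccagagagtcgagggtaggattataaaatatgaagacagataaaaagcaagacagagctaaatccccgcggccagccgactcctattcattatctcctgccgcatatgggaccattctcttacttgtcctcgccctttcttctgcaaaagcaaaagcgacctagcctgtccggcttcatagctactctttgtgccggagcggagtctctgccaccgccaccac
Wnt11: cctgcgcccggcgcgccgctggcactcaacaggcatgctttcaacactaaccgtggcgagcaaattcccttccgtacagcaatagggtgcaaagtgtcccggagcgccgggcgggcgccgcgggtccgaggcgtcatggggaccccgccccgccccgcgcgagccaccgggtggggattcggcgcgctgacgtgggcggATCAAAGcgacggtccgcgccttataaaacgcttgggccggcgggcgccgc
Wnt5b: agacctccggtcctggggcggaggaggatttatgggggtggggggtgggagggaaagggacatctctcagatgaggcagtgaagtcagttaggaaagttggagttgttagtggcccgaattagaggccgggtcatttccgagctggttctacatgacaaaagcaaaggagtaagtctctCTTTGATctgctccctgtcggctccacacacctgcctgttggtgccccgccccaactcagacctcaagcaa

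The motifs searched were CTTTGAT and CTTTGTT, on both strands, in the 250 bases before each start. They share their first 5 letters and cannot match at the same position. Of the 60 genes, 40 matched the table, with 50 promoters. CTTTGAT stood in 2 of the 50, upstream of 1 of the 2 starts of Wnt11 (51 bases before it) and of 1 of the 3 starts of Wnt5b (71 bases). CTTTGTT stood in 3, upstream of the listed starts of Fzd7 and Dkk1 and of 1 of the 2 starts of Tcf7l2. An annotated exon of Dkk1 begins 169 bases before its RefSeq start, so the match 98 bases before that start lies within the annotated gene. The matches of Wnt5b and Tcf7l2 also lie within the annotated genes, before starts inside them. Of all 32851 promoters listed, 3.21% held CTTTGAT, 5.03% CTTTGTT and 8.06% either one. A match is a description of letters in this window and does not show a binding site.

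Of the 60 genes, 36 had enough counts to be tested and 24 did not. The quasi-likelihood test of edgeR set the counts of IR24h against those of sham. P-values were adjusted by Benjamini-Hochberg over the 13609 genes in the fit, and genes with an adjusted p under 0.05 are named as called. Wnt7b and Wnt4 were higher, Sfrp1 and Fzd1 were lower, and 32 were not called. The 4 calls are 11.1% of the 36, beside 16.3% of all genes tested (8.65% higher and 7.62% lower). In 5 of the 36 genes every IR24h library lay above every sham library (13.9%, beside 19.9% of all genes), and in 7 every one lay below (19.4%, beside 21.7%). At an unadjusted p under 0.05 stood 13 of the 36 (36.1%, 7 higher and 6 lower), beside 34.1% of all genes (18.7% higher and 15.5% lower). Their median log2 fold change was 0.10, beside 0.05 for all genes.

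**Figure D1:**
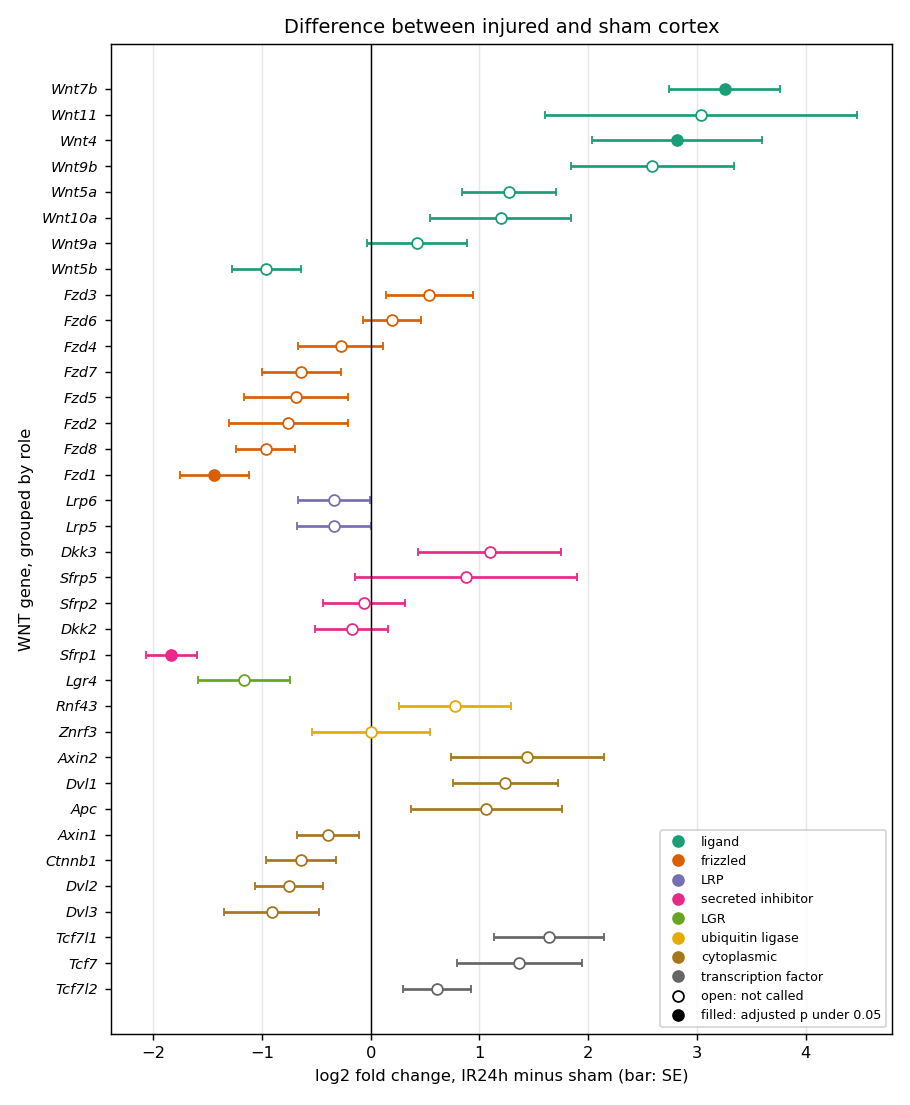
Log2 fold change (IR24h over sham) of the 36 tested WNT genes with its standard error, grouped by role, from 3 libraries against 3. The called genes are Wnt7b (3.26), Wnt4 (2.82), Sfrp1 (-1.83) and Fzd1 (-1.44).

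Ligands gave the 2 genes that rose. Of 19 Wnt genes 8 were tested, and the median log2 fold change was 1.93. By edgeR 2 of the 8 were higher (25.0%, beside 8.65% of all genes) and 0 lower, with 4 higher and 1 lower at an unadjusted p under 0.05. DESeq2, run on all genes without the edgeR expression filter, called 4 Wnt genes higher and 2 lower. It called 13.4% of all genes higher and 10.8% lower. Wnt7b (chr15:85535437-85582473, GRCm38), a ligand of the collecting duct, stood at 1.20, 0.962 and 1.94 CPM in the sham libraries, in the order 1 to 3 used throughout. In IR24h it stood at 14.6, 6.39 and 18.4 CPM. The groups did not overlap, and IR24h library 2 was the lowest of the injured. Its mean went from 1.37 ± 0.511 to 13.2 ± 6.16 CPM (SD, n = 3), a log2 fold change of 3.26 ± 0.51 (SE) with edgeR adjusted p = 0.00786. The rise was also called without IR24h library 2 (3.59) and with library 2 as the only injured library (2.23). It missed the threshold without sham library 1 or 2 (edgeR adjusted p = 0.0503 and 0.0529). The gene length behind the authors' values for Wnt7b was 2.66 times as long in sham as in IR24h, so its counts in the 2 groups may not cover the same bases. A share of 6.62% of its exon bases lies opposite another gene, and without a stated strand setting their reads cannot be told apart.

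Wnt4 (chr4:137277489-137299726), which turns mesenchyme into epithelium in the embryonic kidney, had 0.914, 0.817 and 0.701 CPM in sham. Its injured values were 4.83, 1.18 and 11.4 CPM. Every injured library lay above the sham range, library 2 by little. The means were 0.811 ± 0.106 and 5.79 ± 5.16 CPM (SD, n = 3), the log2 fold change was 2.82 ± 0.78 (SE) and the edgeR adjusted p was 0.0478. With IR24h library 2 as the only injured library the log2 fold change was 0.55 (edgeR adjusted p = 0.419), and without it 3.32 (0.00157). Wnt4 lost its call in 10 of 16 alternative analyses (adjusted p = 0.0894 to 0.419), among them the removal of any one sham library, of IR24h library 1 or of IR24h library 3. Of its exonic 50-base stretches 4.33% also occur in another gene, so a part of its reads could be assigned to either.

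Wnt9b (chr11:103727364-103749821), the ligand of the ureteric duct, had 1.20, 0.913 and 1.73 CPM in sham and 9.09, 1.48 and 12.8 CPM in IR24h. IR24h library 2 lay inside the sham range and the other 2 lay above it. The log2 fold change was 2.59 ± 0.75 (SE) and missed the threshold (edgeR adjusted p = 0.0550). Without IR24h library 2 it was 3.10 (edgeR adjusted p = 9.56e-04). Wnt11 had 0, 0 and 0.593 CPM in sham and 2.13, 0.153 and 2.88 CPM in IR24h libraries 1 to 3, with a log2 fold change of 3.04 ± 1.43 (edgeR adjusted p = 0.180). Wnt7b, Wnt4, Wnt9b and Wnt11 thus all had their lowest injured value in library 2 and their highest in library 3.

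Of 6 markers of the collecting duct, 5 had the same order over the injured libraries and Scnn1g did not. Aqp2, the vasopressin-regulated water channel of principal cells, was at 104, 122 and 162 CPM in sham and 158, 45.8 and 377 CPM in IR24h. The 4 principal cell markers summed to 171 to 223 CPM in sham and 202, 82.2 and 458 CPM in IR24h, and 0 of the 4 were called. Within that sum Scnn1g, a subunit of the epithelial sodium channel, went another way, at 49.2, 43.7 and 39.7 CPM in sham and 7.95, 27.7 and 15.9 CPM in IR24h. All its injured values lay below sham and library 2 was the highest of them (log2 fold change -1.35, edgeR adjusted p = 0.0715). The 2 inner medullary duct markers summed to 1.88, 1.30 and 8.09 CPM in sham and 60.9, 32.0 and 215 CPM in IR24h, and 1 of the 2, Aqp4, was called higher. The other, the urea transporter gene Slc14a2, was at 0, 0 and 4.69 CPM in sham and 42.9, 22.0 and 130 CPM in IR24h (edgeR adjusted p = 0.0656). For both the implied gene length was longer in sham, by 1.51 and 2.07 times. The order over IR24h libraries 1 to 3 was not particular to the duct. Summed markers of thick limb and distal tubule (3165, 2183 and 4803 CPM), macrophage (101, 53.8 and 157 CPM) and adrenal cortex (4.12, 1.79 and 5.42 CPM) had it too. Within the first of these sums Umod and Pvalb had this order. Slc12a1 was highest in IR24h library 1 (1468 CPM) and Slc12a3 in library 2 (743 CPM). Among the macrophage markers Adgre1 was highest in library 2 (3.63 CPM) and an Itgam entry in library 1 (4.26 CPM). The other Itgam entry, Csf1r, C1qa and Cd68 had the order. The adrenal cortex sum was Star alone, as Cyp11b1 and Cyp11a1 had no counts. The sums for proximal tubule, podocyte, endothelium, stroma, urothelium and adipocyte did not have the order. The part of the duct markers, or of these others, in the ligand values was not tested.

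**Figure D2:**
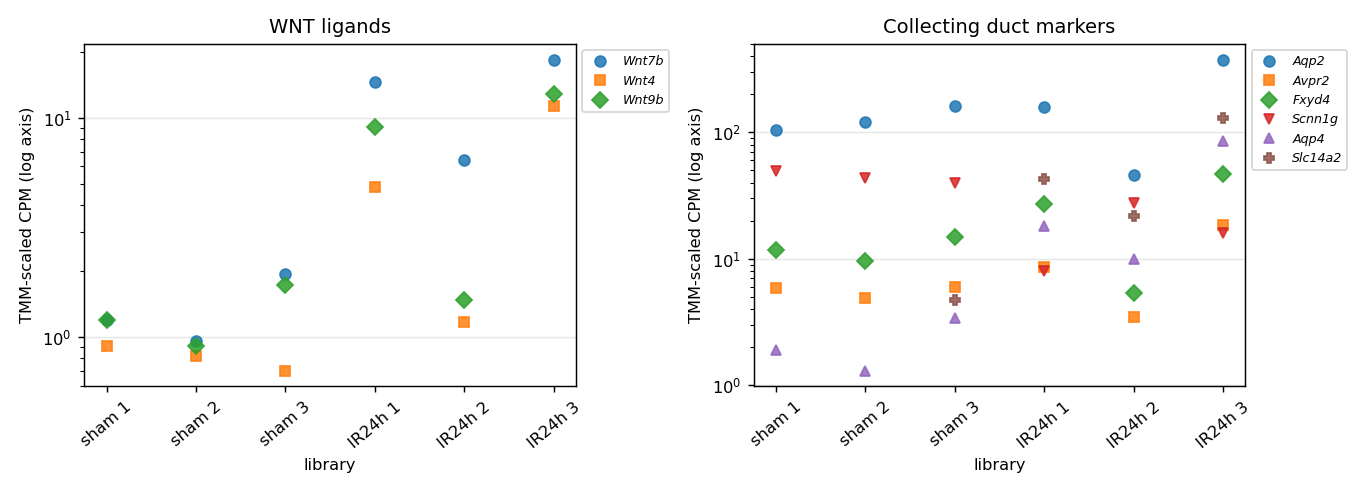
CPM (log axes) of the ligands Wnt7b, Wnt4 and Wnt9b (left) and of the 6 duct markers Aqp2, Avpr2, Fxyd4, Scnn1g, Aqp4 and Slc14a2 (right) in each sham and IR24h library; values of 0 (Slc14a2 in sham libraries 1 and 2) are left out. Among the injured libraries, library 3 is the highest and library 2 the lowest for Wnt7b (18.4 and 6.39 CPM) and for Aqp2 (377 and 45.8 CPM); for Scnn1g library 2 is the highest (27.7 CPM).

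Wnt5a and Wnt5b, ligands best known for signalling outside the β-catenin branch, had fold changes of opposite sign. Wnt5a had 6.05, 6.44 and 5.88 CPM in sham and 6.82, 22.6 and 14.7 CPM in IR24h. The groups did not overlap, and here library 2 was the highest of the injured. The log2 fold change was 1.27 ± 0.43 (SE), which was not called (edgeR adjusted p = 0.0828); with IR24h library 2 as the only injured library it was 1.90 (0.00121). Wnt5b had 6.34, 7.50 and 7.93 CPM in sham and 2.84, 3.73 and 4.54 CPM in IR24h, again without overlap. Its log2 fold change of -0.96 ± 0.32 was not called (edgeR adjusted p = 0.0771), although it was called both without IR24h library 2 and with library 2 alone. Wnt10a (1.20 ± 0.65) and Wnt9a (0.43 ± 0.46) were not called.

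Per gene length, Wnt5b was the most abundant ligand in each sham library, at 1.42 ± 0.127 FPKM (counts per gene length and library total, as the authors gave them, SD, n = 3), followed by Wnt5a at 0.540 ± 0.0411. The library totals behind FPKM include the mitochondrial reads, which lowers all other genes in IR24h, so ranks within a library are compared. Wnt7b was at 0.128 ± 0.0428 FPKM there, between rank 6 and rank 10 of the 19 ligands. In IR24h libraries 1 and 3 Wnt7b ranked first, at 1.81 and 3.60 FPKM, and in library 2 it ranked 2 behind Wnt5a, at 1.77 FPKM. Wnt5b ranked 5, 3 and 5 in IR24h libraries 1 to 3. The shorter gene length behind Wnt7b in IR24h raises its FPKM there. At the length used in sham, Wnt7b would stand at 0.681, 0.665 and 1.35 FPKM in IR24h libraries 1 to 3 and rank 2, 3 and 3, with Wnt9b first in libraries 1 and 3.

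The other 11 ligands were too low to test. Wnt1, Wnt3a and Wnt8a had no count in any library. Wnt2b had 49 counts over the sham libraries and 2 over the IR24h libraries, a pooled level 16.4-fold higher in sham (exact 95% interval 4.30 to 139, counting error only). Wnt16 had 33 and 6 counts, 3.68-fold higher in sham (1.52 to 10.7). Wnt7a went the other way with 4 and 20 counts, 7.47-fold higher in IR24h (2.50 to 30.1). The 3 ratios compare pooled counts and carry no test over libraries. Wnt3 had 0 counts in sham and 2 in IR24h.

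**Figure D3:**
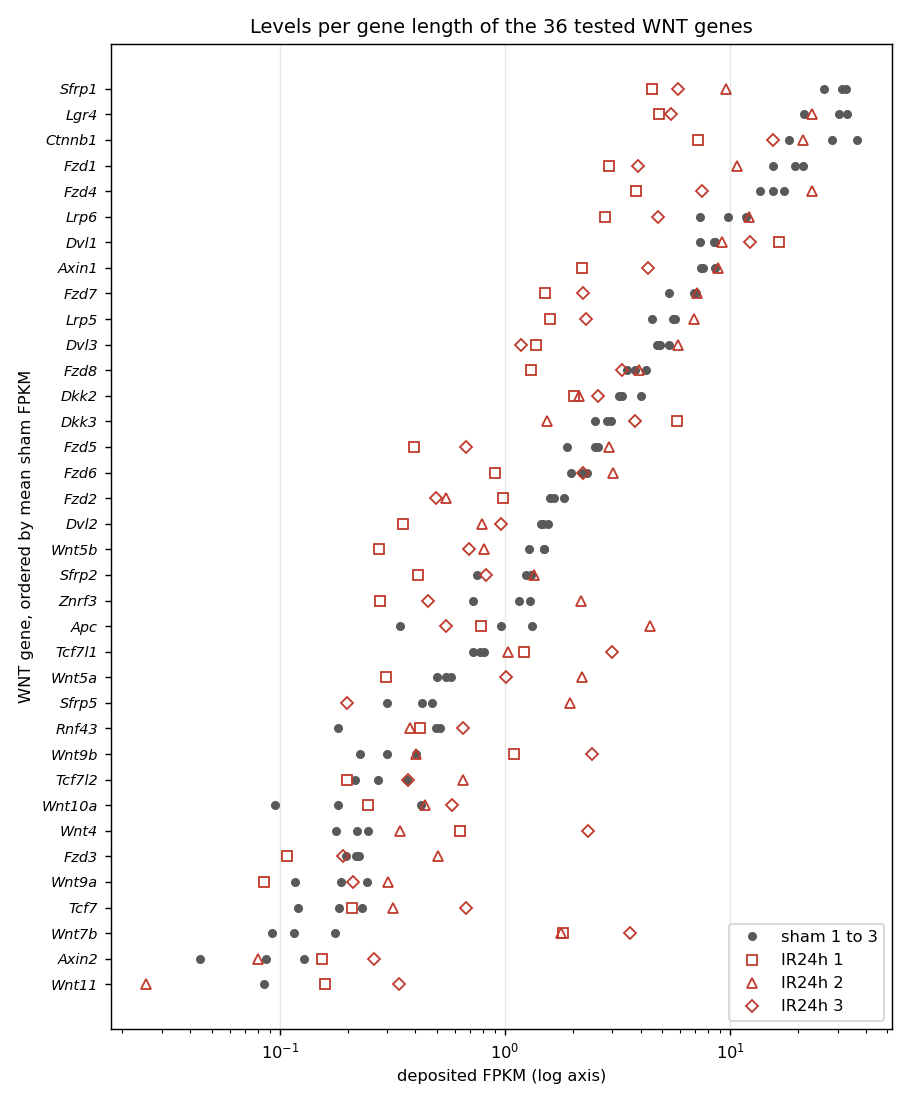
Deposited FPKM (log axis) of the 36 tested WNT genes in the 3 sham libraries (dots) and in each IR24h library (open symbols), ordered by the sham mean; values of 0 are left out (Wnt11 in sham libraries 1 and 2, Sfrp5 in IR24h library 1). Sfrp1, Lgr4 and Ctnnb1 lead in sham (30.2, 28.3 and 27.8 FPKM), and Wnt7b moves from 0.128 FPKM there to 1.81, 1.77 and 3.60 FPKM in IR24h libraries 1 to 3. The gene length behind Wnt7b is shorter in IR24h. At the length used in sham these IR24h values would be 0.681, 0.665 and 1.35 FPKM.

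The secreted inhibitors bind WNT ligands or LRP co-receptors outside the cell. Sfrp1 (chr8:23411502-23449632), a decoy with a Frizzled-like domain, fell in every injured library. Sham libraries held 127, 122 and 108 CPM and injured libraries 36.1, 34.4 and 29.9 CPM. The groups were far apart and library 2 did not stand out. The mean went from 119 ± 9.70 to 33.4 ± 3.19 CPM (SD, n = 3), 3.56-fold lower, with a log2 fold change of -1.83 ± 0.23 (SE) and edgeR adjusted p = 0.00392. Sfrp1 was called lower under all 16 alternatives run, with log2 fold changes from -2.30 to -1.74. In FPKM it ranked 2 among the 60 genes in each sham library and 5, 6 and 4 in IR24h libraries 1 to 3.

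The other 4 tested inhibitors were not called. Dkk3, of the Dickkopf family, had 7.48, 8.80 and 9.01 CPM in sham and 35.5, 4.24 and 14.8 CPM in IR24h libraries 1 to 3 (log2 fold change 1.09 ± 0.66, edgeR adjusted p = 0.279). Library 2 lay below the sham range and the other 2 above it: the log2 fold change was 1.56 without library 2 (edgeR adjusted p = 0.0130) and -0.98 with it as the only injured library (0.0322). Stromal markers summed to 109 to 127 CPM in sham and 2159, 359 and 848 CPM in IR24h libraries 1 to 3, with 5 of 7 called higher, the same order as Dkk3; their part in the Dkk3 values was not tested. Dkk2, which blocks LRP co-receptors, had 10.8, 13.3 and 11.3 CPM in sham and 13.8, 6.49 and 11.2 CPM in IR24h (edgeR adjusted p = 0.741). Sfrp2 (log2 fold change -0.06 ± 0.38) did not pass the test. Sfrp5 had 0, 3.02 and 0.437 CPM in IR24h libraries 1 to 3 against 0.539 to 0.799 CPM in sham. The sum of adipocyte markers was also highest in IR24h library 2 (149 CPM, beside 76.7 and 83.8 in libraries 1 and 3). In libraries 1 and 3 most of it was Fabp4 (66.8 and 82.9 CPM), which was lowest in library 2 (65.1 CPM). Adipoq, Plin1, Lep, Cfd and Cidec were highest in library 2 (12.6 to 22.2 CPM). The part of these markers in the Sfrp5 value of library 2 was not tested. Sfrp4 was not tested, with 12 counts in sham and 28 in IR24h, Dkk1 had 2 and 1, and Dkk4 had none.

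Among the receptors Fzd1 fell. Of 10 Frizzled genes 8 were tested, with 1 lower and a median log2 fold change of -0.66. By edgeR 0 were higher, also at an unadjusted p under 0.05, and by DESeq2 0 were higher and 2 lower. Fzd1 (chr5:4753839-4758035) had sham values of 72.3, 78.4 and 61.7 CPM and IR24h values of 22.3, 36.9 and 19.0 CPM. All 3 injured libraries lay below all sham libraries, library 2 least far. The mean went from 70.8 ± 8.48 to 26.1 ± 9.54 CPM (SD, n = 3), 2.71-fold lower (log2 fold change -1.44 ± 0.32, SE, edgeR adjusted p = 0.0233). It was called without IR24h library 2 (-1.79) and with library 2 alone (-0.93), and not called when any one sham library, IR24h library 1 or IR24h library 3 was left out (adjusted p = 0.0565 to 0.107). When scaled by library size alone it was -1.79 (adjusted p = 0.0849).

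Fzd8, for which 3 of 3 injured libraries lay below sham, had 20.0, 22.4 and 19.7 CPM in sham and 7.95, 10.8 and 12.9 CPM in IR24h. Its log2 fold change of -0.97 ± 0.27 (SE) just missed the threshold (edgeR adjusted p = 0.0509), and its implied gene length was 1.79 times as long in sham. Fzd4, Fzd5 and Fzd7 were low in IR24h libraries 1 and 3 and near or above the sham range in library 2. Fzd4, the receptor of endothelial Norrin signalling, had 103, 92.6 and 86.0 CPM in sham and 46.9, 127 and 58.5 CPM in IR24h. Fzd5 had 22.6, 21.8 and 17.5 CPM in sham and 7.10, 23.3 and 7.69 CPM in IR24h. Fzd7 had 28.2, 28.0 and 23.0 CPM in sham and 12.5, 26.4 and 11.7 CPM in IR24h. These 3 were not called (edgeR adjusted p = 0.254 to 0.653); without IR24h library 2 each was called lower (-0.84, -1.48 and -1.13). Fzd6, which acts in planar cell polarity, had 14.8, 15.8 and 14.2 CPM in sham and 12.6, 18.8 and 19.8 CPM in IR24h and was not called. Neither were Fzd3 (0.54 ± 0.40) and Fzd2 (-0.76 ± 0.55). Fzd9 (3 and 8 counts) and Fzd10 (1 and 3) were too low to test.

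Both LRP co-receptors had their highest injured value in library 2. Lrp6 had 162, 136 and 108 CPM in sham and 79.5, 155 and 86.9 CPM in IR24h libraries 1 to 3. Lrp5 had 58.9, 60.2 and 50.8 CPM in sham and 34.5, 67.7 and 31.6 CPM in IR24h. Both had a log2 fold change of -0.34 and were not called (edgeR adjusted p = 0.512 and 0.513), with library 2 inside or above the sham range. Proximal tubule markers were also highest, among the injured, in library 2 (2565 CPM, beside 821 and 965 in libraries 1 and 3). So were the sums of podocyte markers (241 CPM, beside 115 and 138) and adipocyte markers (149 CPM, beside 76.7 and 83.8). The other marker sums were not. The part of these markers in the receptor values was not tested.

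Lgr4, which binds R-spondins and so strengthens the WNT response, had 164, 179 and 122 CPM in sham and 53.7, 114 and 38.7 CPM in IR24h. The groups did not overlap, library 2 only just. The log2 fold change of -1.17 ± 0.43 (SE) was not called (edgeR adjusted p = 0.101), and without IR24h library 2 it was -1.75 (0.00224). In sham, Lgr4 stood at 28.3 ± 6.18 FPKM (SD, n = 3), beside 30.2 ± 3.49 for Sfrp1 and 27.8 ± 9.18 for Ctnnb1, the 3 highest of the 60 genes, which did not differ beyond their spread. Lgr5, a stem-cell marker of other epithelia, had 9 counts in sham and 25 in IR24h, and Lgr6 had 3 and 6. The R-spondins, the ligands of these receptors, were at low counts and not tested. Rspo3 had 0.228, 0.144 and 0.108 CPM in sham and 0.568, 0.153 and 0.262 CPM in IR24h. Rspo1 had 17 and 8 counts, and Rspo2 and Rspo4 had none.

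Znrf3 and Rnf43 encode membrane ubiquitin ligases that remove Frizzled from the cell surface and are held back by R-spondin. Znrf3 had 12.4, 11.2 and 7.44 CPM in sham and 5.54, 19.4 and 5.77 CPM in IR24h libraries 1 to 3. Library 2 lay above the sham range and the other 2 below it, and the log2 fold change was -0.88 without library 2 (edgeR adjusted p = 0.0479) and 0.92 with it as the only injured library (0.0449). Rnf43 overlapped between the groups (0.78 ± 0.52, edgeR adjusted p = 0.326).

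In the cytoplasm, 0 of 7 tested genes were called by edgeR and 0 by DESeq2, with 1 higher and 1 lower at an unadjusted p under 0.05 (Dvl1 and Dvl2). The median log2 fold change was -0.39. Ctnnb1, encoding β-catenin, had 374, 188 and 311 CPM in sham and 152, 200 and 208 CPM in IR24h libraries 1 to 3, with overlap (-0.64 ± 0.32, edgeR adjusted p = 0.205). Its exons lie in part (14.6% of bases) opposite a gene on the other strand. The Dishevelled genes, which pass the signal from the receptor, had fold changes on both sides of 0. Dvl1 had 73.5, 85.6 and 91.6 CPM in sham and 344, 85.8 and 161 CPM in IR24h. Dvl2 had 12.0, 11.3 and 12.3 CPM in sham and 5.68, 5.67 and 9.79 CPM in IR24h. Dvl3 had 37.6, 41.3 and 38.7 CPM in sham and 18.0, 34.5 and 9.79 CPM in IR24h. Dvl1 lay above sham in libraries 1 and 3 (1.24 ± 0.48), and Dvl2 (-0.75 ± 0.31) and Dvl3 (-0.91 ± 0.44) below sham in every injured library, but none passed the test (edgeR adjusted p = 0.119 to 0.186). For Dvl3 the implied gene length was 1.21 times as long in sham, and 18.3% of the exon bases of Dvl2 lie opposite a gene on the other strand.

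The scaffold genes of the destruction complex, Apc and Axin1, were not called. Apc had 36.1, 9.47 and 28.1 CPM in sham and 38.6, 97.8 and 17.2 CPM in IR24h, a wide spread in both groups. Axin1 had 39.1, 34.6 and 36.0 CPM in sham and 20.6, 37.1 and 25.7 CPM in IR24h (-0.39 ± 0.28, edgeR adjusted p = 0.364). Axin2, a feedback inhibitor that β-catenin induces, was low, with 37 counts in sham and 58 in IR24h (1.44 ± 0.70, edgeR adjusted p = 0.194).

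Of the 4 TCF/LEF factors 3 were tested and 0 were called by edgeR, with 2 higher at an unadjusted p under 0.05 (Tcf7l1 and Tcf7) and 1 higher by DESeq2. Tcf7l1, a repressor in the absence of β-catenin, had 3.25, 3.65 and 3.72 CPM in sham and 11.4, 4.29 and 17.7 CPM in IR24h libraries 1 to 3. Every injured library lay above sham, library 2 by little, and the log2 fold change of 1.64 ± 0.51 was not called (edgeR adjusted p = 0.0645). Tcf7, at 1.37 ± 0.58, was also above sham in each injured library, and Tcf7l2 was at 0.61 ± 0.31. Lef1 was too low to test: 14 counts in sham and 57 in IR24h, 6.08-fold higher in IR24h (exact 95% interval 3.35 to 11.8, counting error only), with 0.102 CPM in library 2 inside the sham range. Without IR24h library 2 all 4 factors were tested. Then 3 were called higher, Tcf7l1, Tcf7 and Lef1, beside 23.9% of all genes.

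**Figure D4:**
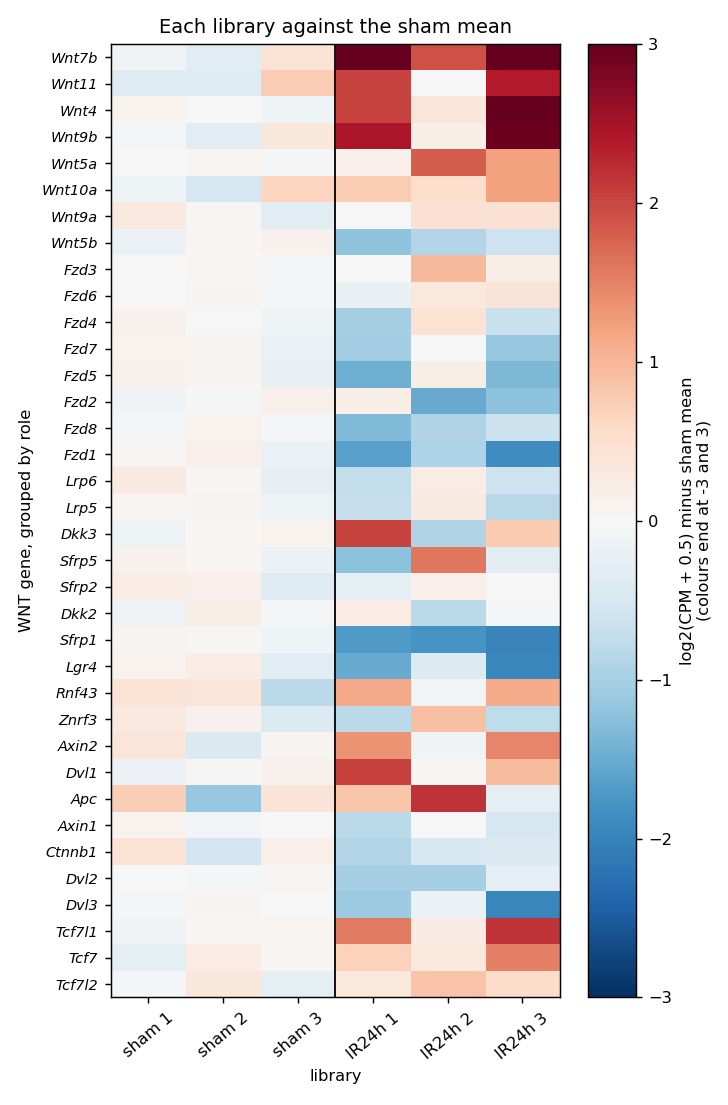
Log2(CPM + 0.5) of WNT genes in each library minus the sham mean, as colours that end at -3 and 3, for the 36 tested genes by role. Sfrp1 is low in all 3 injured libraries, whereas Fzd5, Znrf3 and Dkk3 differ in sign between library 2 and libraries 1 and 3.

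Without IR24h library 2, 39 of the 60 genes were tested: 10 were called higher (25.6%, beside 23.9% of all genes) and 14 lower (35.9%, beside 24.5%). The lower genes then included Lgr4, Lrp5, Lrp6, Dvl3, Axin1 and 5 Frizzled genes, and the higher ones Wnt9b, Tcf7l1, Tcf7, Axin2 and Dvl1. With library 2 as the only injured library, for which the test takes its spread from the sham libraries, 6 of 39 were higher (15.4%, beside 18.8%) and 9 lower (23.1%, beside 19.2%). Apc, Wnt5a, Sfrp5, Fzd3, Znrf3 and Wnt7b made up the higher group. Both analyses use the same sham libraries and are given side by side only.

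**Figure D5:**
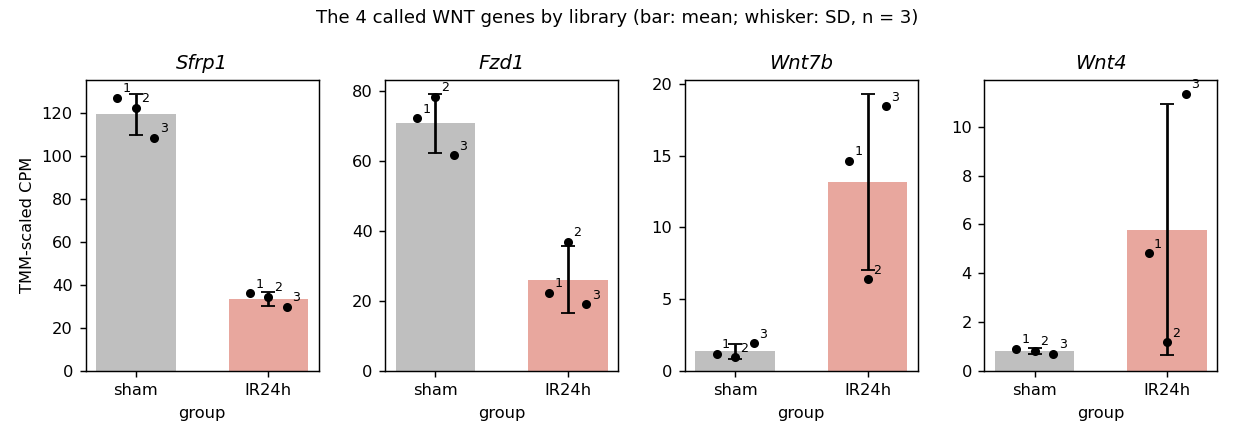
CPM of the 4 called genes in each sham and IR24h library (numbered points), with the mean (bar) and SD (whisker, n = 3). The groups do not overlap for any of the 4, and IR24h library 2 lies closest to sham for Wnt7b, Wnt4 and Fzd1 (6.39, 1.18 and 36.9 CPM).

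The rest of the WNT pathway was examined by 6 lists of 76 other genes, of which 66 were tested, 10 were higher (15.2%) and 4 lower (6.06%), beside 8.65% and 7.62% of all genes. Nkd1 and Notum stand in 2 of the lists and are counted once in these totals. Of the 10 higher genes, 9 are in the list of genes known as WNT targets, Nkd1 among them, and the other is Ptk7. That list holds 1 of the 4 lower genes. Without IR24h library 2, 17 of 66 were higher (25.8%, beside 23.9% of all genes) and 19 lower (28.8%, beside 24.5%). In the list of WNT release and extracellular control 1 of 12 tested genes fell, and by edgeR and DESeq2 0 rose (1 at an unadjusted p under 0.05). The gene that fell was Gpc4, a heparan sulphate proteoglycan, with 226, 272 and 226 CPM in sham and 37.6, 77.9 and 69.3 CPM in IR24h (-1.97 ± 0.33, edgeR adjusted p = 0.0103). Wls, which carries WNT ligands to the cell surface, was at -0.92 ± 0.36 and did not pass the test. Of 4 further co-receptors 1 rose, Ptk7, at 6.57, 8.17 and 7.61 CPM in sham and 34.8, 10.4 and 28.9 CPM in IR24h (1.72 ± 0.45, edgeR adjusted p = 0.0400), with an implied gene length 1.36 times as long in sham.

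Of 17 genes of the destruction complex and its control 1 rose, the feedback antagonist Nkd1, at 1.03, 1.01 and 1.13 CPM in sham and 11.4, 2.76 and 9.26 CPM in IR24h (2.86 ± 0.56, edgeR adjusted p = 0.0166). Of 9 nuclear partners of β-catenin 2 fell: Ctnnbip1, which keeps β-catenin off TCF factors (-0.999 ± 0.24, edgeR adjusted p = 0.0294), and Aes, a Groucho-type corepressor (-1.39 ± 0.33, edgeR adjusted p = 0.0302). Of 10 planar cell polarity genes tested 0 were called by edgeR and 0 by DESeq2, with 2 lower at an unadjusted p under 0.05.

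Among genes known as WNT targets 9 of 16 tested rose (56.3%, beside 8.65% of all genes) and 1 fell, with a median log2 fold change of 2.18. The list was chosen with earlier results of these data known, so its share is a description and carries no test. Without IR24h library 2 the counts were 10 (62.5%, beside 23.9%) and 1. Those that rose included Mmp7 (3 counts in sham and 119 in IR24h, pooled ratio 59.3, exact 95% interval 19.8 to 292), Sox9 (4.46 ± 0.57, edgeR adjusted p = 0.00401) and Cd44 (4.35 ± 0.59, edgeR adjusted p = 0.00488). Sp5, a direct β-catenin target and the only one called lower, was named after its values were seen. It had 22.4, 25.4 and 34.3 CPM in sham and 3.12, 6.08 and 6.82 CPM in IR24h, with every injured library below every sham library (-2.34 ± 0.37, edgeR adjusted p = 0.00786). Axin2, Lgr5 and Lef1, which are known targets too, are described above. With all libraries Axin2 was not called, and Lgr5 and Lef1 were not tested. Without IR24h library 2, Axin2 (1.91, edgeR adjusted p = 0.0206) and Lef1 were called higher, and Lgr5 was again not tested.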

How the data were processed

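Gene expression in mouse renal cortex was measured in 3 sham and 3 IR24h libraries. The submitters' processing notes name TopHat2 2.0.6 and CASAVA 1.8, and the builds mm10 and GRCh38. Read counter, annotation and strand setting were not given in the sources used here. The authors deposited, per the file headers, raw counts per gene, the main measurement, and FPKM values, used for levels between genes and as an alternative. Of 22040 listed genes, 83 without a sham value were left out. Count and FPKM together imply a gene length, which differed between groups by more than 0.01 (log2) for 13.1% of comparable genes with at least 5 counts, and for 6 of 40 WNT genes (Apc, Dvl3, Fzd8, Tcf7, Tcf7l2 and Wnt7b), all longer in sham. How the groups were processed and the injury cannot be told apart.

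Counts were tested with edgeR 4.0.16 (R 4.3.3), after its expression filter and TMM scaling (trimmed mean of M-values), 2-sided; CPM values use the same scaling. Alternatives used other scalings, no filter, DESeq2 1.42.0, limma 3.58.1 (voom, or log2(FPKM + 0.1)), no mitochondrial genes, a replicate block and libraries left out. The analyses of IR24h library 2 alone and of FPKM were chosen after seeing the data. The test was checked on simulated data. Coordinates are from GENCODE M21 (GRCm38). Tables used pandas 2.3.3 and SciPy 1.17.1 under Python 3.11.15, and plots matplotlib 3.10.9.

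The WNT genes and lists were chosen with earlier results of these data known. Values in every library are given for genes called, averaging 10 CPM or more in a group, or highest in their role; a few others were added after their values were seen. Pathway lists are named by up to 4 called genes with the largest change. One such gene is not reported here. Totals of counts per library set the precision, and intervals cover counting error only.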

Additional observations from a re-analysis of the deposited data

How the results depend on the processing

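For the 23 tested WNT genes that the naming rule takes, 16 alternatives each gave 368 log2 fold changes: 308 kept direction and side of the threshold, 24 passed it newly, 18 no longer passed it and 18 changed sign, in 10 genes. With IR24h library 2 as the only injured library the sign changed for Axin1 (0.034), Dkk3 (-0.98), Fzd4 (0.45), Fzd5 (0.19), Fzd7 (0.013), Lrp5 (0.27), Lrp6 (0.21) and Znrf3 (0.92). Fzd6 was at -0.20 when scaled by library size only and at -0.22 in FPKM. Dkk2 ran from -0.42 to 0.073 when one library was left out, and Znrf3 from -0.88 to 0.29; Znrf3 was at 0.010 with RLE scaling, 0.061 with upper-quartile scaling and 0.027 without mitochondrial genes. Outside the rule, Sfrp5 (0.87) was at -0.15 with voom, -0.33 in FPKM and -1.39 without IR24h library 2. Scaling by library size only moved the median of all log2 fold changes from 0.05 to -0.39 and that of the WNT genes to -0.22.

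Genes called higher and lower numbered 1177 and 1037 in all. They were 398 and 611 by library size only, 2078 and 1684 with DESeq2, 2690 and 2749 with IR24h library 2 as the only injured library, and 678 higher in FPKM. With one library left out they ran from 246 to 3297 and from 196 to 3382, and the highest counts came without IR24h library 2. For WNT genes (2 and 2) the counts were 1 and 1 by library size only, 5 and 6 with DESeq2, and 6 and 9 with IR24h library 2 as the only injured library. The higher count was 1 with voom, with the replicate block and in FPKM. Leaving out one library gave 0 to 10 higher and 1 to 14 lower. For the other pathway genes (10 and 4), it gave 4 to 17 and 0 to 19, and IR24h library 2 alone gave 7 lower. The cause of these shifts was not tested. The labels do not say whether the replicate numbers pair the samples. Same-numbered libraries correlated at -0.109, 0.120 and 0.233 in their deviations from the group means. With 3 libraries per group the deviations depend on each other, so these values cannot decide it. With the replicate block 814 genes were higher and 843 lower, and of the WNT genes 1 and 2. The 24 untested genes had at most 37 counts in a library, and 6 of them had 0 in all; whether depth or absent expression sets these counts was not tested.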

Other observations

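Several Wnt genes lie next to each other, and in 4 pairs the gap was under 100 kb. Wnt9b and Wnt3 lie 24.3 kb apart on chromosome 11: Wnt9b had 72 counts in sham and 240 in IR24h, whereas Wnt3 had 0 and 2. Wnt6 and Wnt10a lie 6.19 kb apart, with 9 and 4 counts for Wnt6. Among the 16 tested genes nearest to the 4 called WNT genes, 2 on each side, 1 was called, beside 16.3% of all genes tested. It was Ido2, beyond the nearest neighbour of Sfrp1 (log2 fold change -1.46, edgeR adjusted p = 0.0220).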
